A study of Homo sapiens with 6 samples.

Results

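The 8 genes described here encode proteins that sense, carry, make or break down GABA (gamma-aminobutyric acid), the compound that had been added to the cultures. They were taken by symbol for that role: the receptor subunits GABBR1 and GABRG1, the transporters SLC6A6, SLC6A8 and SLC36A1, and the enzymes ALDH5A1, ALDH9A1 and AKR7A2. All 8 were found among the 5187 genes in the files. The study sequenced RNA from Huh7, a human hepatocellular carcinoma cell line, in 3 cultures given GABA for 24 h and 3 control cultures without it. The labels call the 3 libraries of each group biological replicates and do not state the dose of GABA. The series title concerns the synthesis of GABA by liver cancer cells and its regulation of genes in metastasis, and the comparison asked here is how the genes that handle GABA differed after it was added.

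GABA is best known as an inhibitory neurotransmitter, but liver cells also take it up and degrade it. Cells sense it through GABA-A receptors, which are chloride channels built from subunits, and through the GABA-B receptor, which is coupled to inhibitory G proteins and needs both GABBR1, the subunit that binds GABA, and GABBR2. Inside the cell, the transaminase ABAT turns GABA into succinic semialdehyde, which ALDH5A1 oxidises to succinate for the citric acid cycle and AKR7A2 reduces to gamma-hydroxybutyrate. ALDH9A1 acts at the other end, since it oxidises the aminoaldehyde made from putrescine to GABA and also serves carnitine synthesis.

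Read counts on the listed genes summed to between 7719243 and 8392945 in the GABA libraries and between 7702666 and 8235028 in the control libraries. The list is not the whole transcriptome, so a gene absent from it may still be expressed. Across tested genes, the order of the files and the p-values of this comparison had a Spearman correlation of 0.93, and the smallest absolute log2 fold change of a tested gene was 0.12. The list is therefore tied to the comparison, nearly every gene in it differs between the groups, and the labels state no selection. Levels are CPM, counts scaled to a total of 1000000 on the listed genes after TMM scaling. Differences were tested with edgeR's quasi-likelihood test, with Benjamini-Hochberg adjustment over all 4981 tested genes and a threshold of 0.05. In bulk RNA, fewer cells of a type and less RNA per cell cannot be told apart.

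Of the 8 genes, 6 fell and 2 rose with GABA, and all 8 passed the threshold. Of all tested genes 98.7% passed, 51.2% lower and 47.6% higher, so the number passing is no result about these genes. In all 8 the GABA and control libraries did not overlap, which was also the case for 92.5% of all tested genes (46.7% lower with GABA and 45.8% higher). GABRG1 passed the filter on low counts through its control libraries, so its direction was fixed by the filter. Of the other 7 genes 5 fell and 2 rose (median log2 fold change -0.42, beside -0.18 over all tested genes). GABBR1, SLC6A6 and SLC6A8 were lower, at 56.2% to 65.6% of control, and the 3 enzymes lay between 74.8% and 128% of control. SLC36A1 and AKR7A2 were the 2 genes that rose.

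**Figure D1:**
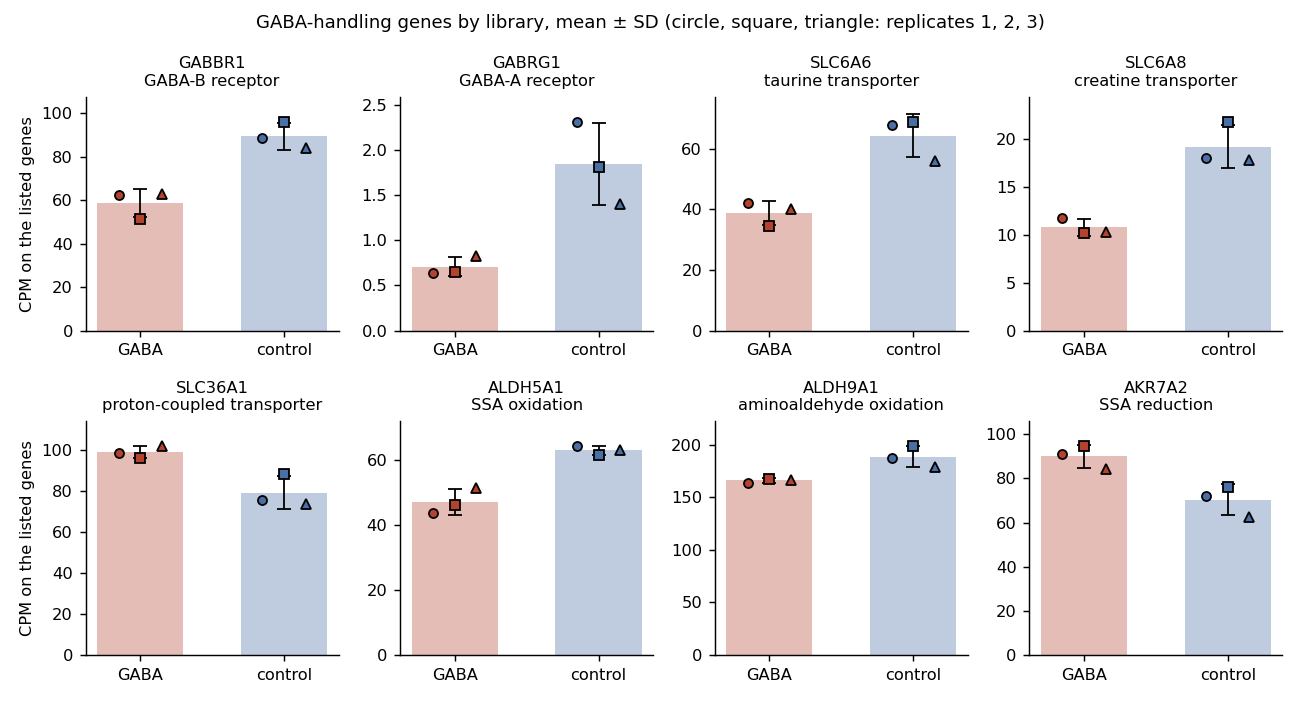
CPM on the listed genes (vertical axis, linear from 0) of the 8 GABA-handling genes in 3 GABA and 3 control libraries. Bars are means, error bars are SD and points are libraries. SSA is succinic semialdehyde. In each panel the GABA and control points do not overlap, and SLC36A1 and AKR7A2 are the panels with the higher GABA bar.

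The GABA-B receptor subunit GABBR1 (ENSG00000204681, hg38 chromosome 6, 29555629 to 29633976, minus strand) was the better measured receptor gene. It had 62.3, 51.3 and 62.7 CPM in GABA replicates 1, 2 and 3, against 88.6, 96.2 and 83.9 CPM in control replicates 1, 2 and 3. The highest GABA library lay 21.3 CPM below the lowest control library. GABBR1 fell to 65.6% of control, a log2 fold change of -0.61 ± 0.10 (SE, adjusted p = 4.3e-04 with edgeR), and 73.1% of tested genes had a smaller absolute log2 fold change. Its partner GABBR2, without which the receptor does not reach the cell surface, is not among the listed genes. KCTD12, an auxiliary subunit that binds the GABA-B receptor and shapes its G protein response, fell as well, to 54.9 ± 1.53 CPM with GABA against 84.8 ± 4.70 CPM in control (SD, n = 3 each; log2 fold change -0.63 ± 0.09, adjusted p = 1.4e-04 with edgeR). The ratio of GABBR1 to KCTD12, each per kilobase of exon, averaged 0.788 ± 0.106 with GABA and 0.780 ± 0.0987 in control, and its values overlapped between the groups. Exons of UBD and OR2I1P cover 8.52% of the exon length of GABBR1. Neither is among the listed genes, so reads from them could not be judged.

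GABRG1 (ENSG00000163285, chromosome 4, 46035769 to 46124081, minus strand), the gamma-1 subunit of GABA-A receptors, was at the edge of detection. Its read counts were 5, 5 and 7 in the GABA libraries and 19, 14 and 11 in the control libraries. These are few reads, summing to 17 with GABA (95% exact Poisson interval 9.90 to 27.2) and 44 in control (32.0 to 59.1), where the intervals cover counting error only. In CPM the values were 0.642, 0.646 and 0.826 with GABA and 2.31, 1.81 and 1.40 in control, so the groups lay 0.573 CPM apart. GABRG1 had a log2 fold change of -1.36 ± 0.39 (SE, adjusted p = 0.0073 with edgeR), the largest in size of the 8 genes and the one with the largest error. It passed the filter on low counts through the control libraries, since 0 GABA libraries and 3 control libraries reached the cutoff of 1.27 CPM, and a gene kept in this way had to be lower with GABA. It was the 1 listed gene of the 19 GABA-A receptor subunits.

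The transporters moved in both directions. SLC6A6 and SLC6A8 belong to the sodium- and chloride-dependent transporter family SLC6. Their main substrates are taurine for SLC6A6, which carries GABA with low affinity, and creatine for SLC6A8. SLC36A1 is a proton-coupled carrier of small amino acids, GABA among them, found on lysosomes and at the cell surface.

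SLC6A6 (ENSG00000131389, chromosome 3, 14402576 to 14489349, plus strand) had 42.3, 34.6 and 40.1 CPM in GABA replicates 1, 2 and 3, against 67.9, 69.0 and 56.1 CPM in control replicates 1, 2 and 3. All 3 GABA libraries were at least 13.8 CPM below all 3 control libraries. Its log2 fold change was -0.72 ± 0.11 (SE, adjusted p = 3.2e-04 with edgeR), or 60.7% of control.

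SLC6A8 (ENSG00000130821, chromosome X, 153688099 to 153696593, plus strand) was less abundant, at 11.8, 10.2 and 10.3 CPM in the GABA libraries and 18.0, 21.8 and 17.8 CPM in the control libraries. Control replicate 2 was the highest of the 6, and the groups were separated by 5.99 CPM. SLC6A8 fell to 56.2% of control (log2 fold change -0.83 ± 0.15, SE, adjusted p = 7.3e-04 with edgeR). A near-identical pseudogene of it, SLC6A10P, is not among the listed genes. How reads shared with SLC6A10P were counted is not given in the sources used here. The ratio of SLC6A6 to SLC6A8 per kilobase of exon was 2.41 ± 0.174 with GABA and 2.24 ± 0.237 in control, and it overlapped between the groups.

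SLC36A1 (ENSG00000123643, chromosome 5, 151437046 to 151492381, plus strand) had 98.7, 96.4 and 102 CPM in GABA replicates 1, 2 and 3, against 75.5, 88.3 and 73.5 CPM in control replicates 1, 2 and 3. The GABA libraries lay close together, and the lowest of them was 8.07 CPM above control replicate 2, the highest control library. SLC36A1 rose by 0.33 ± 0.09 on the log2 scale (SE, adjusted p = 0.0063 with edgeR), or to 125% of control. Because SLC36A1 rose and SLC6A6 fell, the ratio of SLC36A1 to SLC6A6 per kilobase of exon was 2.76, 3.29 and 3.02 in the GABA libraries, against 1.32, 1.51 and 1.55 in the control libraries. The ratio of SLC36A1 to SLC6A8 averaged 7.29 ± 0.654 with GABA and 3.25 ± 0.0564 in control. Ratios within a library do not depend on how libraries were scaled, but these pairs were chosen after their values were seen and were not tested.

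The transcripts of the 2 enzymes that act on succinic semialdehyde also moved apart. ALDH5A1 (ENSG00000112294, chromosome 6, 24494852 to 24537207, plus strand), the mitochondrial succinic semialdehyde dehydrogenase, had 43.5, 46.1 and 51.3 CPM in the GABA libraries and 64.2, 61.5 and 63.0 CPM in the control libraries. The control values were nearly level, with a coefficient of variation of 2.15%, and all GABA values were at least 10.2 CPM below them. ALDH5A1 fell to 74.8% of control (log2 fold change -0.42 ± 0.10, SE, adjusted p = 0.0025 with edgeR).

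AKR7A2 (ENSG00000053371, chromosome 1, 19303965 to 19312146, minus strand), the aldo-keto reductase that makes gamma-hydroxybutyrate from the same substrate, had 91.3, 94.7 and 84.5 CPM with GABA and 72.0, 76.3 and 62.6 CPM in control. GABA replicate 3 was the lowest of its group and still 8.23 CPM above control replicate 2. AKR7A2 rose by 0.36 ± 0.10 on the log2 scale (SE, adjusted p = 0.0053 with edgeR), or to 128% of control. Its relatives AKR7A3 and AKR7L, which are similar in sequence, are not among the listed genes, so reads shared with them could not be judged. The ratio of AKR7A2 to ALDH5A1 per kilobase of exon was 6.51, 6.37 and 5.11 in the GABA libraries, against 3.48, 3.85 and 3.08 in the control libraries. It averaged 5.99 ± 0.772 with GABA and 3.47 ± 0.382 in control (SD, n = 3 each). AKR7A2 rose and ALDH5A1 fell without overlap, so their ratio had to be higher in every GABA library. This pair too was chosen after its values were seen, and its ratio was not tested. The ratio compares transcripts and says nothing of enzyme activity or of the amounts of the products.

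ALDH9A1 (ENSG00000143149, chromosome 1, 165662216 to 165698863, minus strand), the aminoaldehyde dehydrogenase, changed least. It had 164, 168 and 167 CPM in GABA replicates 1, 2 and 3, against 188, 199 and 179 CPM in control replicates 1, 2 and 3. The groups did not overlap, and the gap of 10.2 CPM is small beside the level. Its log2 fold change was -0.18 ± 0.07 (SE, adjusted p = 0.023 with edgeR), or 88.3% of control, and 3.35% of tested genes had a smaller absolute log2 fold change. This call was lost with DESeq2 (adjusted p = 0.10) and with DESeq2's size factors in edgeR (adjusted p = 0.071). It was also lost without GABA replicate 1, 2 or 3 (adjusted p = 0.080, 0.058 and 0.066 in edgeR) and without control replicate 1 or 2 (adjusted p = 0.054 and 0.068).

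**Figure D2:**
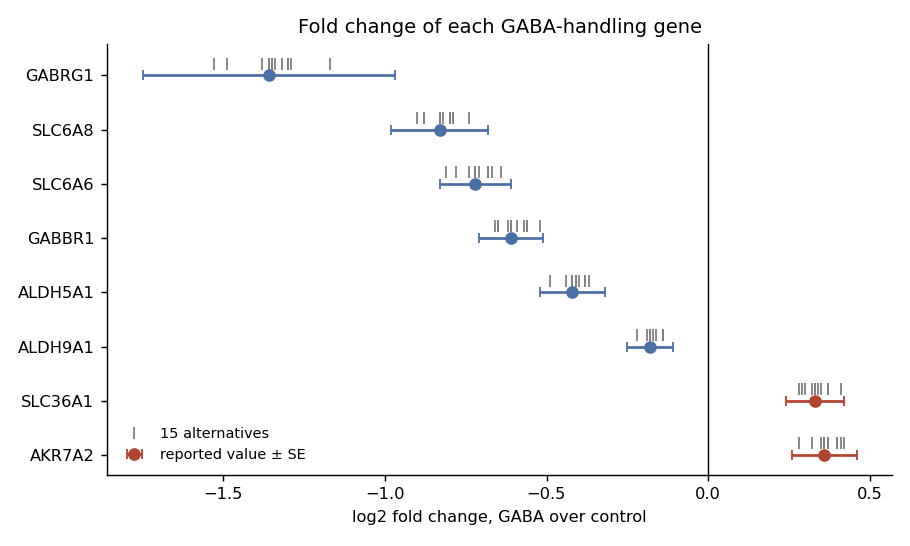
Log2 fold change, GABA over control (horizontal axis), for each of the 8 genes. Points are the reported values with SE from edgeR, blue for lower and red for higher, and grey ticks are the values under 15 alternatives of scaling, filter, tool, block or a left-out library. No tick of any gene lies on the other side of 0, and those of GABRG1 span the widest range, -1.53 to -1.17. The reported direction of GABRG1 was fixed by the filter on low counts.

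Control replicate 3 stood apart from the other control libraries, and not only in these genes. A chi-square per degree of freedom, larger where the counts of 2 libraries differ more, was taken over tested genes with enough reads. It was 17.7 and 25.5 for control replicate 3 against control replicates 1 and 2. Between control replicates 1 and 2 it was 5.35, and among the GABA libraries 2.67 to 4.37. Control replicate 3 was the lowest control library in 7 of the 8 genes, ALDH5A1 being the exception. Mitochondrially encoded transcripts held 9.11% of its counts. That share was 6.66% to 7.04% in the GABA libraries and 7.14% and 7.74% in the other control libraries. The part of this difference in the results was not tested beyond leaving the library out. Without control replicate 3 the log2 fold changes were -0.65 for GABBR1, -1.53 for GABRG1, -0.81 for SLC6A6, -0.88 for SLC6A8, -0.42 for ALDH5A1 and -0.22 for ALDH9A1. Those of SLC36A1 and AKR7A2 were 0.28 each. All 8 genes passed the threshold in that fit, with edgeR adjusted p-values from 2.4e-08 for SLC6A6 to 0.0037 for GABRG1. At 2 decimals, the 6 falls were as large or larger without the library, and the 2 rises were smaller.

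Levels can be compared between genes per length, here as CPM per kilobase of merged exons of all annotated transcripts, which may differ from the transcripts present in Huh7. With GABA, AKR7A2 at 50.6 ± 2.92 CPM per kilobase and ALDH9A1 at 50.3 ± 0.633 were highest (SD, n = 3), and their values overlapped. SLC36A1 followed at 14.2 ± 0.438, ALDH5A1 at 8.51 ± 0.718 and GABBR1 at 6.94 ± 0.763, each without overlap with the next. SLC6A6 at 4.73 ± 0.477, SLC6A8 at 1.96 ± 0.166 and GABRG1 at 0.104 ± 0.0155 came last.

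In control cells the order of levels differed at the top and in the middle. ALDH9A1 at 57.0 ± 3.04 CPM per kilobase lay above AKR7A2 at 39.5 ± 3.93, without overlap. ALDH5A1, SLC36A1 and GABBR1 came next at 11.4 ± 0.245, 11.3 ± 1.15 and 10.6 ± 0.731, and their values overlapped, so their order is not resolved in control cells. SLC6A6 at 7.79 ± 0.867, SLC6A8 at 3.49 ± 0.407 and GABRG1 at 0.271 ± 0.0670 followed without overlap. The within-library ratio of AKR7A2 to ALDH9A1 was 1.03, 1.04 and 0.943 in the GABA libraries and 0.710, 0.713 and 0.650 in the control libraries. AKR7A2 rose and ALDH9A1 fell without overlap, so this ratio had to separate, and the pair was chosen after its values were seen. Set among all tested genes by level per kilobase over the 6 libraries, ALDH9A1 stood above 84.0% and AKR7A2 above 80.3% of them, and GABRG1 above 0.221%.

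**Figure D3:**
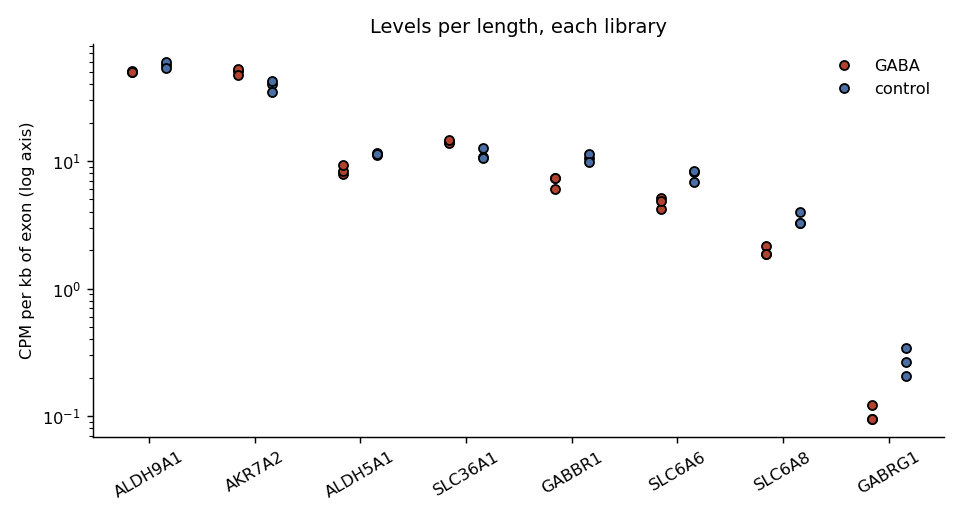
CPM per kilobase of merged exon (vertical axis, logarithmic) in each library for the 8 genes, ordered by their control mean, with GABA points left of control points. ALDH9A1 and AKR7A2 lie highest in both groups and GABRG1 lies lowest.

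**Figure D4:**
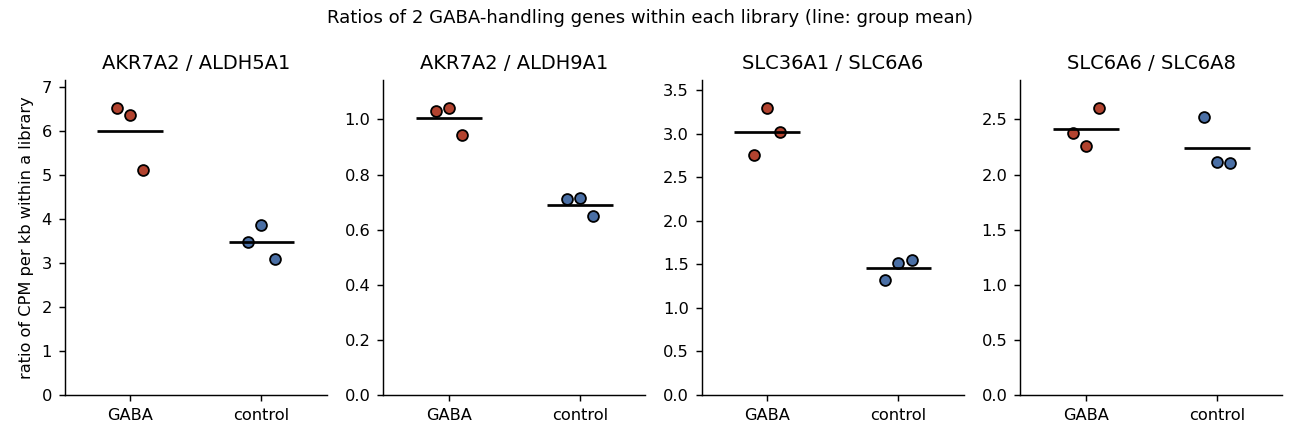
Ratios of the CPM per kilobase of 2 of the genes within each library (vertical axes, linear from 0), for 3 GABA and 3 control libraries, with lines at the group means. The ratios of AKR7A2 to ALDH5A1, AKR7A2 to ALDH9A1 and SLC36A1 to SLC6A6 are higher in all GABA libraries, and those of SLC6A6 to SLC6A8 overlap. Where the upper gene rose and the lower gene fell without overlap, the ratio had to separate. The pairs were chosen after their values were seen.

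Promoter windows of 300 bases, 250 before and 50 after a start site, were held by the RefSeq table on GRCh38.p14 for 7 of the 8 genes. SLC6A6 had no entry. The windows of 3 genes are shown because they alone among the 7 hold motifs other than the GC box, and because they belong to GABBR1 and to the 2 genes that rose. Capitals mark every match, on either strand, to the motifs searched, which were the E-box CACGTG, the antioxidant response element core TGACNNNGC, the cyclic AMP response element TGACGTCA, the GC box GGGCGG, the amino acid response element core TGATGNAA, the TATA box TATAAA and the tonicity element core.
GABBR1, chr6:29627964-29628263, minus strand: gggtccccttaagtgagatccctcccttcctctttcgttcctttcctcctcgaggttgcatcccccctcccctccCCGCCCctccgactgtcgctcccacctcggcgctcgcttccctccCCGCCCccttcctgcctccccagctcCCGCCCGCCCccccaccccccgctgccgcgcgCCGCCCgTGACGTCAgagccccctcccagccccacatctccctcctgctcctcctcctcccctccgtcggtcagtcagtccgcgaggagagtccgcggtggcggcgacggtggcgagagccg
SLC36A1, chr5:151447353-151447652, plus strand: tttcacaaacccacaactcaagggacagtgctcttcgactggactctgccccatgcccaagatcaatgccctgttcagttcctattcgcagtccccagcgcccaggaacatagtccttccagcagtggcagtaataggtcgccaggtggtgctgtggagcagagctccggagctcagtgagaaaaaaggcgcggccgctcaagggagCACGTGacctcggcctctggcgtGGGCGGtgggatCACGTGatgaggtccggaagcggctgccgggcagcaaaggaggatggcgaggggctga
AKR7A2, chr1:19312095-19312394, minus strand: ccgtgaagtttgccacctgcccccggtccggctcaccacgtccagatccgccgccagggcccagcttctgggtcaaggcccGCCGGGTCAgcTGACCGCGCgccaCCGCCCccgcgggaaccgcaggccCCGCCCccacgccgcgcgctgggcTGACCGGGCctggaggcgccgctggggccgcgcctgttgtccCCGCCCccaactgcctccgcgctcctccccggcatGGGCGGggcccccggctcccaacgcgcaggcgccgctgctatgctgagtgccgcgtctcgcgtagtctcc

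The window of GABBR1 holds a full cyclic AMP response element whose first base is 65 bases before the start site, together with 5 GC boxes, 2 of which overlap. This start site lies inside the GENCODE gene, downstream of its outermost start. That of SLC36A1 holds a pair of E-boxes that begin 43 and 8 bases before the start site, with a GC box between them, and the table's other start site for SLC36A1 has no match to any of the motifs. The window of AKR7A2 holds 3 antioxidant response element cores, which begin 169, 158 and 97 bases before the start site, and 4 GC boxes. In the other windows the matches were GC boxes alone, in SLC6A8, ALDH5A1 and ALDH9A1, and GABRG1 had none. Of the 7 genes, 1 holds the cyclic AMP response element, 1 the E-box, 1 the antioxidant core and 6 the GC box, beside 1.85%, 7.26%, 13.3% and 45.0% of 35116 promoter windows of the same length. A gene was counted for a match in any of its windows, while the percentages count windows. SLC36A1 and AKR7A2 had more than 1 window. None of the 7 matched the amino acid response element core, the TATA box or the tonicity element core, which are in 3.62%, 11.5% and 20.2% of all windows. A match describes letters in these windows and not a site in use.

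The pathway around the 8 genes was described from lists of receptor, transport and enzyme genes. Besides the 8, these lists name 195 genes, of which 56 are in the files and 54 were tested, with 22 higher, 31 lower and 1 not passing (median log2 fold change -0.22, beside -0.18 over all tested genes). The counts of each list below stand against 51.2% lower and 47.6% higher over all tested genes, and no list was tested. GAD1, which makes GABA, and ABAT are not among the listed genes.

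Downstream of the GABA-B receptor, 9 of 27 effector genes were tested, with 5 higher, 4 lower and a median log2 fold change of 0.19. RGS4 and RGS2, which speed the switching off of G protein signals, rose most. RGS4 had 62.7 ± 5.23 CPM with GABA and 15.8 ± 3.26 CPM in control (SD, n = 3 each), a log2 fold change of 1.98 ± 0.14 (SE, adjusted p = 1.8e-06 with edgeR). RGS2 had 32.3 ± 1.49 CPM with GABA and 12.5 ± 3.06 CPM in control, a log2 fold change of 1.37 ± 0.16. The G protein beta subunit gene GNB5, a partner of other RGS proteins, fell to 41.8 ± 3.38 CPM with GABA against 64.5 ± 0.770 CPM in control (-0.63 ± 0.10), and the gamma subunit gene GNG12 fell as well, at -0.35 ± 0.07. Of the genes for receptor trafficking and anchoring, 3 rose, 1 fell and 1 did not pass among 5 tested. GABARAPL1, a GABARAP relative that also serves autophagy, rose to 1416 ± 136 CPM with GABA against 937 ± 168 CPM in control (0.59 ± 0.11), CLPTM1, which retains GABA-A receptors inside the cell, rose by 0.32 ± 0.06, and the anchoring protein gene GPHN (gephyrin) had -0.42 ± 0.11.

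Among transporters, the SLC6 family had 4 listed genes of 19. Besides SLC6A6 and SLC6A8, SLC6A9, a glycine transporter, fell to 29.8 ± 0.280 CPM with GABA against 49.6 ± 7.66 CPM in control (log2 fold change -0.73 ± 0.12). SLC6A16, an orphan member of the family, had 20 reads in all with GABA and 49 in control. It reached the filter's cutoff in 0 GABA libraries and 3 control libraries, so, like GABRG1, it had to be lower with GABA (0.823 CPM with GABA and 2.05 CPM in control). SLC36A4, a relative of SLC36A1, went the other way from it, at 54.7 ± 2.03 CPM with GABA and 73.4 ± 7.81 CPM in control (-0.42 ± 0.10). Of all 96 tested solute carrier genes, 63 fell and 31 rose (median log2 fold change -0.27). In the list of lysosomal amino acid sensing, which holds SLC36A1, 3 of 9 tested genes rose and 6 fell. The other rises were those of the kinase gene MTOR (0.31 ± 0.07) and of its partner RPTOR (0.30 ± 0.07), and the falls included SLC36A4 and RRAGD (-0.37 ± 0.11), a GTPase that recruits the kinase to lysosomes.

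For SLC6A8 and SLC6A6, whose main cargoes are creatine and taurine, 2 of 12 genes of creatine and taurine metabolism were listed, and both rose. GAMT, the last enzyme of creatine synthesis, had 75.9 ± 2.44 CPM with GABA and 50.1 ± 7.74 CPM in control (log2 fold change 0.60 ± 0.11, adjusted p = 8.5e-04 with edgeR). CKMT2, a mitochondrial creatine kinase, had 11.0 ± 1.60 CPM with GABA and 5.21 ± 0.906 CPM in control (1.07 ± 0.21). The osmolyte list, to which SLC6A6 belongs because taurine is an osmolyte, had 3 tested genes of 7, and all fell: SLC6A6, the amino acid transporter gene SLC38A2 (-0.51 ± 0.06) and the chaperone gene HSPA4L (-0.45 ± 0.10).

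Around the enzymes, 7 of 14 genes of the breakdown list were tested, 3 higher and 4 lower (median log2 fold change -0.18), a list that holds ALDH9A1 although it makes GABA. In the same list, SUCLG2, a subunit of succinyl-CoA ligase, rose to 249 ± 4.64 CPM with GABA against 192 ± 5.56 CPM in control (0.38 ± 0.06). Of the succinate dehydrogenase subunit genes, SDHA had 0.30 ± 0.09, SDHC -0.18 ± 0.07 and SDHD -0.21 ± 0.08. SMOX, spermine oxidase, in the polyamine route that feeds ALDH9A1, fell to 48.5 ± 2.34 CPM with GABA against 72.9 ± 8.07 CPM in control (-0.59 ± 0.10). Of the carnitine list, which shares ALDH9A1, all 3 tested genes of 8 fell, with the carnitine importer SLC22A5 at -0.40 ± 0.11 and CPT1A, the carnitine palmitoyltransferase, at -0.36 ± 0.07. Of 19 genes that supply glutamate, from which GABA is made, 9 were tested, 7 lower and 2 higher, with a median of -0.33. SLC38A1, a glutamine importer, had the smallest p among them, at 1330 ± 29.2 CPM with GABA and 2048 ± 68.1 CPM in control (-0.62 ± 0.06), followed by GOT1, the cytosolic aspartate aminotransferase (-0.59 ± 0.07). OGDH, of the 2-oxoglutarate dehydrogenase complex, rose by 0.38 ± 0.07.

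Within their enzyme families, ALDH5A1 and ALDH9A1 stood among 8 tested aldehyde dehydrogenases of 19, of which 4 rose and 4 fell. ALDH3B1 fell most, to 69.4 ± 7.31 CPM with GABA against 155 ± 6.60 CPM in control (-1.16 ± 0.09), and ALDH1A3, which makes retinoic acid, rose by 0.60 ± 0.11. Of the aldo-keto reductases, 3 of 13 were tested. AKR7A2 and AKR1E2 (0.53 ± 0.13) rose, and AKR1C1, an NRF2 target, fell to 1.76 ± 0.605 CPM with GABA against 5.73 ± 0.987 CPM in control (-1.70 ± 0.29), although reads of the AKR1C genes are hard to assign because the copies are alike. The 2 tested chloride cotransporters, which set the chloride gradient that GABA-A receptors use, had opposite signs, with SLC12A4 at 0.25 ± 0.08 and SLC12A2 at -0.25 ± 0.10.

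**Figure D5:**
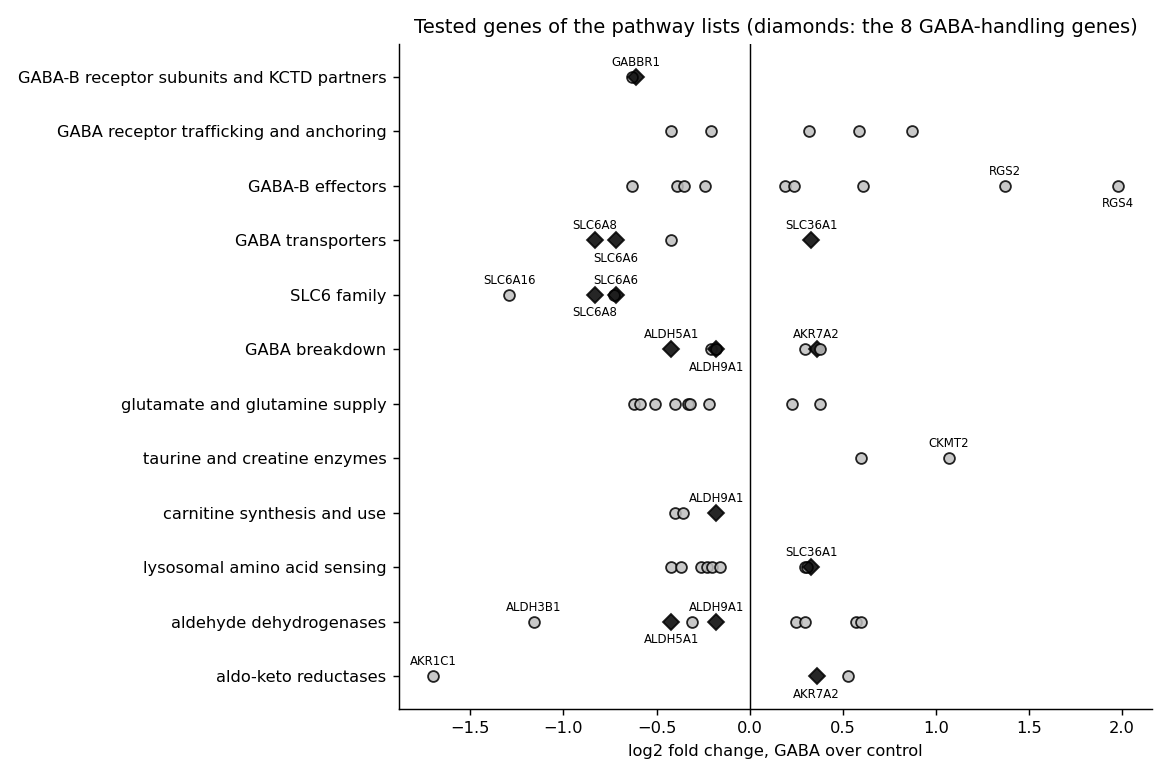
Log2 fold change, GABA over control (horizontal axis), of the tested genes in 12 pathway lists. Diamonds are GABA-handling genes and circles are other genes, and a gene in several lists appears in each. GABRG1 is in none of the lists drawn and is not shown. The 4 SLC6 genes lie left of 0, SLC6A16 by the filter on low counts. The breakdown, aldehyde dehydrogenase and aldo-keto reductase lists lie on both sides, and RGS4 at 1.98 lies farthest to the right.

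Genes with the profile most like each of the 8 were sought among 4298 genes averaging 10 CPM or more, by the root mean square distance between log2 CPM over the 6 libraries after centring each gene on its own mean. The nearest to GABBR1 was CPNE7 at 0.038, followed by FBXO32 at 0.051. The nearest to SLC6A6 was SMIM20 at 0.060, and to SLC6A8 it was AP3S2 at 0.065. SLC36A1 had TOE1 at 0.020, AKR7A2 had KCTD7 at 0.020, ALDH5A1 had ZFP64 at 0.021 and ALDH9A1 had ACAT1 at 0.019. For GABRG1, with its few reads, the nearest was TMSB4XP8 at 0.097, the largest of these nearest distances among the 8 genes. Among the 8 genes themselves, the closest pairs were GABBR1 with SLC6A6 at 0.083 and SLC36A1 with AKR7A2 at 0.092, and the farthest was GABRG1 with AKR7A2 at 0.894. The libraries share the contrast and the scaling, so many genes of similar fold change have similar profiles.

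Markers of other cell types were checked beside these results. Of 17 hepatocyte lineage markers, KRT8 and KRT18 were listed. KRT8 rose by 0.21 ± 0.09 on the log2 scale and KRT18 had -0.21 ± 0.09, both past the threshold. The KRT18 values overlapped between the groups. ALB and AFP are not among the listed genes, so the liver identity of the line could not be checked. Of 13 neuron markers 3 were tested, with summed levels of 27.6 to 31.5 CPM with GABA and 31.1 to 36.9 CPM in control. These sums hide opposite changes, since SYP rose by 0.79 ± 0.22 on the log2 scale while MAP2 had -0.94 ± 0.15 and SNAP25 -0.75 ± 0.25, all 3 past the threshold. Of 8 fibroblast markers 3 were tested, at a sum of 141 CPM in each GABA library and 120 to 141 CPM in control. Here too all 3 passed in different directions, with COL3A1 at 0.66 ± 0.13, THY1 at 0.33 ± 0.08 and PDGFRB at -0.99 ± 0.13. None of the 10 immune and 6 endothelial markers was listed, which does not show that they were not expressed. Their part in the results was not tested.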

How the data were processed

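RNA was sequenced from 3 GABA-treated and 3 control Huh7 cultures, grouped by the sample titles. The deposited values are raw read counts per Ensembl gene, 1 file per library, per the file headers. The submitters' processing notes name CASAVA 1.8, Bowtie 0.12.2 and the build hg38. The counting program, annotation and strand setting are not given in the sources used here, so reads in overlapping exons are uncertain. Of the identifiers, 5173 took their symbol from a table of gene names and 14 from GENCODE release 29; positions and merged exon lengths are those of that release.

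Counts were tested with edgeR 4.0.16 in R 4.3.3: filterByExpr (minimum count 10, minimum total 15), which removed 206 genes, TMM, a robust quasi-likelihood fit over all 6 libraries and Benjamini-Hochberg adjustment. SE is the absolute log2 fold change divided by the square root of F. Totals are over the listed genes and are not library depths. Alternatives were other scalings and filters, DESeq2 1.42.0, limma-voom (limma 3.58.1), a replicate block and each library left out. The scripts were tested on simulated counts in which few genes differed, which is unlike the listed genes. Named genes were the 8 genes, the genes with the smallest p of each pathway list, up to 4, and the nearest profiles, from which some are left out here; some pathway genes beyond the first 4 are named too, chosen after their values were seen. The 8 genes and the lists were chosen with earlier results of these data known. All pairs of genes for ratios were chosen after their values were seen, and no ratio was tested. P-values set each difference against the spread between these cultures. The listed genes are tied to this comparison, so the adjusted p-value of a single gene cannot be read at face value. Tables and figures were made in Python 3.11.15 (pandas 2.3.3, matplotlib 3.10.9).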

Additional observations from a re-analysis of the deposited data

How the results depend on the processing

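Under 15 alternatives no log2 fold change of the 8 genes changed sign. GABBR1, GABRG1, SLC6A6, SLC6A8, SLC36A1, ALDH5A1 and AKR7A2 passed the threshold in all 15 and ALDH9A1 in 8. The other 7 alternatives for ALDH9A1 are given beside its value. For GABRG1 the reported direction was fixed by the filter on low counts. Of the 8 genes 7 or 8 passed in each alternative. The count over all genes ran from 4423 with DESeq2 size factors in edgeR to 5131 without a filter, beside 4918 as reported. Leaving out 1 library gave 4025 to 4735. The replicate block gave 4823 genes and all 8 of these genes. Same-numbered libraries did not deviate together (correlations 0.00075, -0.093 and -0.037), and the labels do not say that a number pairs cultures. The largest median shift of the log2 fold changes by another scaling was 0.043, with DESeq2 size factors in edgeR. All scalings rest on the listed genes, of which 98.7% passed, so the point of no change was not tested. ALDH9A1, at -0.18, lay at the median of all tested genes (-0.18). The listed genes are tied to this comparison, so this stability is little evidence of its own. With 61 reads over 6 libraries, depth limits GABRG1 most.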
